A study of Mus musculus with 74 samples.

Results

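Complement in the SOD1-G93A mouse was followed through 9 genes: the chains of C1q (C1qa, C1qb, C1qc), the components C3 and C4b, the receptors C3ar1 and C5ar1, and 2 proteins of the alternative pathway, factor B (Cfb) and properdin (Cfp). The rows were found by gene symbol. Each of the 9 had a row of its own in both deposited tables, which hold 23297 features with a symbol. The tables give FPKM (fragment counts scaled to transcript length and to the number of mapped fragments) for 74 libraries in 21 groups. All mice were female, and every cell preparation was made with beads against CD11b, a surface protein of microglia, macrophages, monocytes and neutrophils.

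Microglia (MG) were taken from the spinal cord of non-grafted mice that carry a mutant human SOD1-G93A transgene on a C57BL/6J background, a model of amyotrophic lateral sclerosis. The 4 pre-symptomatic G93A mice had a mean age of 50.8 days, the 5 onset mice 105 days, the 4 early symptomatic mice 152.6 days and the 4 end-stage mice 169.4 days. Reference mice carried a wildtype human SOD1 transgene (WT; 4 of onset age, mean 107.3 days, and 4 of end-stage age, mean 165.4 days) or no transgene (C57BL/6J, called B6; 4 of onset age, mean 109.8 days, and 4 of end-stage age, mean 165.6 days). Sciatic nerve macrophages (MP) of non-grafted G93A mice make up 3 pre-symptomatic, 3 onset, 4 early symptomatic and 4 end-stage libraries. Another 4 MP libraries of end-stage age have WT in their description and G93A in their title, source and strain. They are called "described as WT" below. Grafted mice were all G93A hosts that were given bone marrow of a WT or a G93A donor at onset, and cells of the host remained beside those of the donor. They gave 3 libraries per donor, stage (early symptomatic or end stage) and cell type, except 2 MP libraries for WT marrow in the early symptomatic stage. An MG library is 1 spinal cord, and an MP library holds the nerves of 1 mouse (2 mice, pooled, for the pre-symptomatic MP libraries).

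Complement is a cascade of plasma and tissue proteins that marks cells, debris and microbes for uptake. In the classical pathway C1q binds a surface and leads through C4 to the splitting of C3. Factor B and properdin form and hold the C3-splitting enzyme of the alternative pathway. The fragments C3a and C5a act on C3ar1 and C5ar1, which sit on myeloid cells and steer their movement and activation. In the healthy central nervous system microglia are the main source of C1q, and C1q and C3 take part in the tagging of synapses.

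Chains of C1q are encoded by neighbouring genes on chromosome 4 of mm10, all on the minus strand. C1qb lies at 136880133 to 136886196, C1qc at 136889802 to 136892915 and C1qa at 136895916 to 136898844. The gaps between them are 3605 and 3000 bases, and all 3 fit in 18712 bases. C3 (57203967 to 57228136), C4b (34728380 to 34743897) and Cfb (34856379 to 34862514) are on chromosome 17, with 112481 bases between C4b and Cfb. C3ar1 is on chromosome 6 (122847140 to 122856160), C5ar1 on chromosome 7 (16246743 to 16259540) and Cfp on chromosome X (20925454 to 20931555), all on the minus strand.

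Promoter windows of 4 members are shown, those of C1qb, C1qc and C3ar1, which moved together across microglia libraries, and that of C3, which followed C1qb less closely (correlation 0.694, against 0.998 for C1qc and 0.970 for C3ar1). Each runs from 250 bases before to 50 bases after the gene's start, on the gene's own strand (RefSeq, GRCm38.p6). Capitals in the first 3 mark AGGAAG or its reverse complement CTTCCT, the core that PU.1, a transcription factor of myeloid cells, and other ETS factors bind. Capitals in C3 mark TTNNGNAA on either strand, a form of the site that C/EBP factors bind.
C1qb, chr4:136886151-136886450: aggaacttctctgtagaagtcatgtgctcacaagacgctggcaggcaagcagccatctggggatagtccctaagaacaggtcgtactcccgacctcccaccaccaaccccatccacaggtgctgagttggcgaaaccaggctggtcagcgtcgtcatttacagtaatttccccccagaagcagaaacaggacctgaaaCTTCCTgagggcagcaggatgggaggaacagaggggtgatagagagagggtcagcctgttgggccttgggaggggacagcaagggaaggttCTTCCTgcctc
C1qc, chr4:136892865-136893164: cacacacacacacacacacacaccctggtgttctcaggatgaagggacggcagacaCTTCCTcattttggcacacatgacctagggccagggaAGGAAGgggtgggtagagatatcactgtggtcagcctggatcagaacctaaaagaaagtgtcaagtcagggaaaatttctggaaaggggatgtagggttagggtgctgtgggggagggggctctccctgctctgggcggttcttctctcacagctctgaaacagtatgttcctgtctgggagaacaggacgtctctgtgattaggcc
C3ar1, chr6:122856108-122856407: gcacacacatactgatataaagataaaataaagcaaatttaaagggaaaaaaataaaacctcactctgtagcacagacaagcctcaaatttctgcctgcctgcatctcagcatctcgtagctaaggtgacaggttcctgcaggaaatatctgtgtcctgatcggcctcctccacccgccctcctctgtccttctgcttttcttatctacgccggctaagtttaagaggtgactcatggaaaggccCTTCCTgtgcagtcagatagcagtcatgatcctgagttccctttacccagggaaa
C3, chr17:57228087-57228386: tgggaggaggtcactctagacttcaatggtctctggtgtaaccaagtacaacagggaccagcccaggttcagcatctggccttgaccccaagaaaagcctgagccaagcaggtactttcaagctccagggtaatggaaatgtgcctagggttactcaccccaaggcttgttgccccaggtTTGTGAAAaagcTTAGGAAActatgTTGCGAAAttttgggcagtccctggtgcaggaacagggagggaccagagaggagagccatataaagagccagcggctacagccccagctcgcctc
The C1qb and C1qc windows held 2 AGGAAG letters each, the C3ar1 window 1 and the C3 window 0. TTNNGNAA stood 3 times in the C3 window, where the marked copies do not overlap, and 1 time, unmarked, in the C1qc window. The C5ar1 window, not shown, held 3 AGGAAG and 1 TTNNGNAA, so the letters do not sort the members by pattern. AGGAAG is found on either strand in 35.4% of 32851 promoter windows of the same length and TTNNGNAA in 40.7%, so neither is rare. Windows were found for 6 of the 9 members, the other 2 being C5ar1 and Cfp. These matches are letters in a window and were not measured as bound sites.

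Marker genes set the frame for every level below. All 7 microglia markers (P2ry12, Tmem119, Cx3cr1, Sall1, Csf1r and Siglech among them) were above 1 FPKM in each MG library, but their sum ran from 662.1 FPKM in a B6 to 17654 FPKM in an onset library. The 8 oligodendrocyte markers summed to 1837 to 11253 FPKM in G93A end-stage MG, 6693 to 23414 FPKM in WT MG of that age and 27839 to 32407 FPKM in pre-symptomatic G93A MG. Neutrophil markers (9 genes) summed to 74103 to 205956 FPKM in non-grafted MP libraries, where 7 macrophage markers summed to 251.3 to 1271 FPKM, so the MP libraries go against their label in holding far more neutrophil than macrophage message. In 4 MG libraries S100a8, a neutrophil gene, was above 10000 FPKM: onset replicate 5, G93A end-stage replicate 4, and WT replicates 1 and 2 at the age of end stage. In bulk libraries of this kind fewer cells of a type and less RNA per cell cannot be told apart.

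In non-grafted G93A microglia the C1q chains, C3, C4b, Cfb and both receptors were higher in the early symptomatic stage and at end stage than in pre-symptomatic mice. The pre-symptomatic mice were the youngest (mean 50.8 days) and had no controls of their age, so stage and age cannot be told apart there. Mean C1qb in controls was also higher at end-stage age than at onset age. It was 4688 against 1937 FPKM in WT and 2179 against 898.9 FPKM in B6, a difference that was not tested. Against B6 mice of end-stage age the same 8 genes were higher in G93A mice at end stage. Against WT mice, which also carry a human SOD1 transgene, C4b and Cfb passed the test at end stage and Cfb at onset. Cfb averaged under 1 FPKM in all control groups and in pre-symptomatic G93A mice. It entered the test through the later G93A groups where it is high. With no filter it stayed called at end stage, and at onset it was not called (adjusted p = 0.0733). Properdin passed in none of these. The test was limma on log2(FPKM + 1) with Benjamini-Hochberg adjustment over all genes tested, and a gene was called at an adjusted p under 0.05.

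Counts read as follows against all genes. At end stage against pre-symptomatic microglia 8 of 9 members were higher, beside 24.8% of 11750 genes, and the median log2 change was 2.79 over members and 0.03 over all genes. In early symptoms against pre-symptomatic microglia 8 of 9 were higher, beside 19.2%, with medians of 2.33 and 0.05. At onset against pre-symptomatic microglia 3 of 9 were higher (C3ar1, C5ar1 and Cfb), beside 10.3%. These comparisons share the pre-symptomatic libraries, and in each of them stage goes with age. With terms for the oligodendrocyte and neutrophil markers, which moved with stage, C4b and C3ar1 alone stayed called at end stage, 2 of 9 members, and 838 genes were called higher in place of 2914. C3 (1.27), C5ar1 (0.76) and Cfb (0.58) then had adjusted p of 0.11, 0.18 and 0.102. In early symptoms 6 stayed called, all but C1qc (adjusted p = 0.0763) and C3 (adjusted p = 0.0814). The share of all genes called with these terms in early symptoms is not given, so the 6 cannot be set against it.

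At end stage against B6 the share was 8 of 9 beside 18.3% of genes, and at onset against B6 it was 7 of 9 beside 29.4%, C4b and Cfp being the exceptions. With the marker terms 5 members stayed called at end stage against B6, the C1q chains being lost, and 0 at onset. The share of all genes called with these terms is not given for either, so the counts cannot be set against it. At end stage against WT it was 2 of 9 beside 2.81%, with medians of 1.01 over members and -0.13 over all genes, and at onset against WT 1 of 9 beside 1.04%. Comparisons at a stage share their G93A libraries. All 9 members passed the filter of a mean of at least 1 FPKM, Cfb through the G93A groups where it is high. Pre-symptomatic G93A mice also averaged under 1 FPKM of Cfb (0.83). The counts against WT, B6 and pre-symptomatic mice that include Cfb are limited by this.

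**Figure D1:**
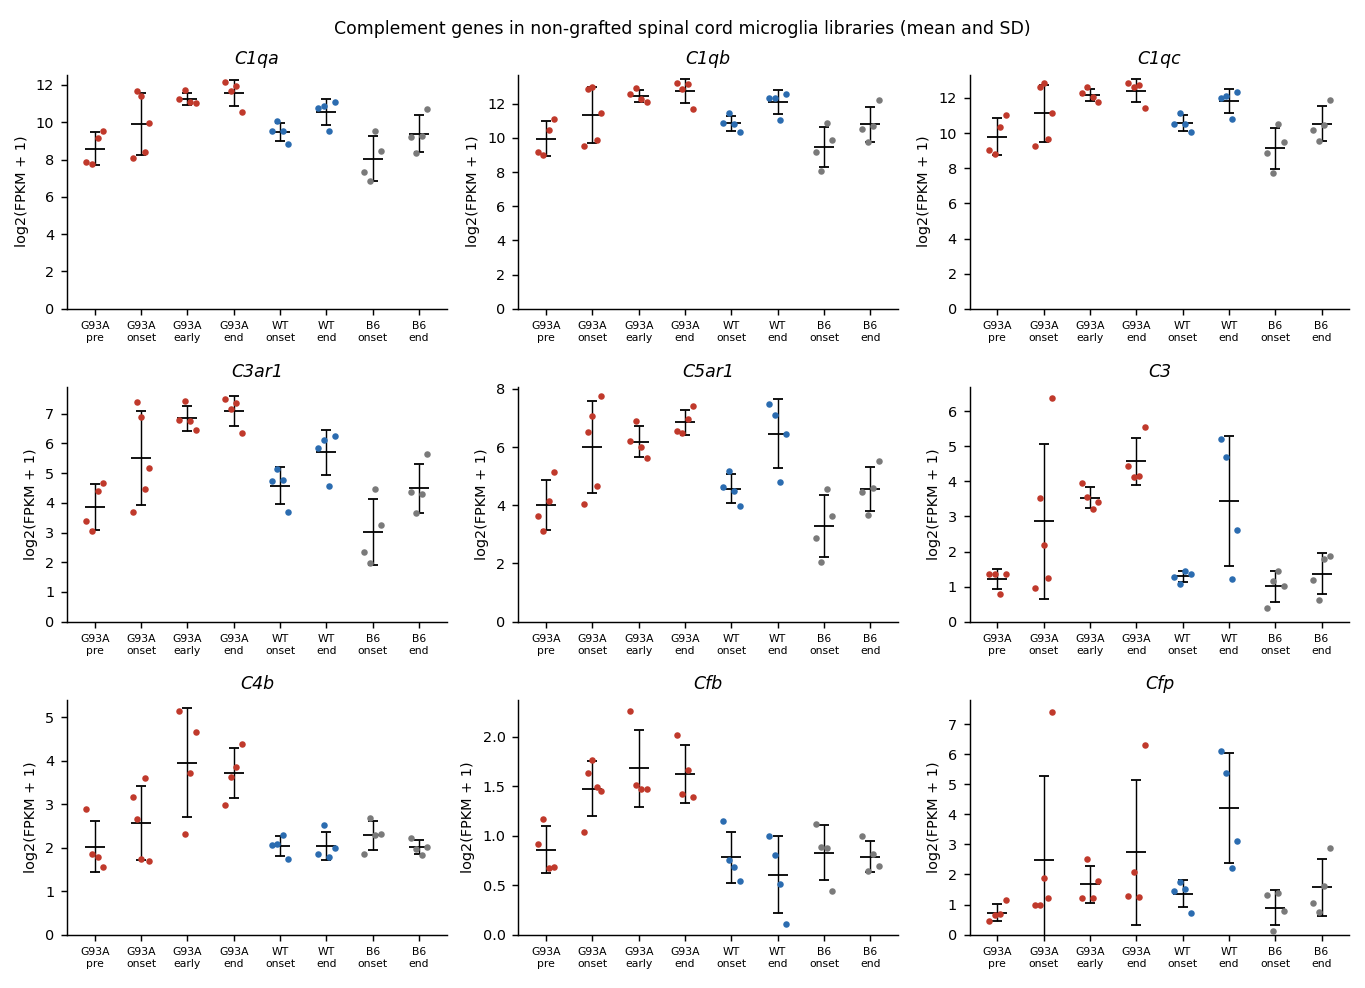
Level of each member in the 33 non-grafted microglia libraries, as log2(FPKM + 1) on the vertical axis, by genotype and stage; points are libraries, bars the mean and SD. C1q chains and C3ar1 are high in early symptoms and at end stage of G93A mice, onset libraries are spread over the whole range, and Cfp is high in 4 libraries of 3 groups.

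C1q chains were the most abundant members in microglia. C1qb, the B chain, in G93A mice averaged 1180 ± 802 FPKM when pre-symptomatic (SD, n = 4), 4012 ± 3565 FPKM at onset (n = 5), 5802 ± 1488 FPKM when early symptomatic (n = 4) and 7330 ± 2844 FPKM at end stage (n = 4). Single libraries at end stage had 9627, 7407, 8987 and 3299 FPKM of C1qb, against 5176, 5262, 2148 and 6166 FPKM in WT, 1470, 883.1, 1644 and 4719 FPKM in B6 and 582.0, 505.4, 1423 and 2209 FPKM in pre-symptomatic mice. End-stage libraries were all above the pre-symptomatic ones, whereas the lowest of them, replicate 4, lay inside the ranges of WT and B6. That library also had the lowest summed microglia markers of its group, at 3149 FPKM beside 7613 to 8334 FPKM in the others.

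The log2 change of C1qb at end stage was 2.79 ± 0.69 (SE, adjusted p = 0.00196) against pre-symptomatic mice, 1.93 ± 0.69 (adjusted p = 0.0243) against B6 and 0.64 ± 0.69 (adjusted p = 0.599) against WT. C1qa, the A chain, was higher by 2.98 ± 0.67 (adjusted p = 0.00109) and 2.18 ± 0.67 (adjusted p = 0.0113) in the first pair of comparisons, and differed from WT by 1.01 ± 0.67 (adjusted p = 0.363). C1qc, the C chain, was higher by 2.62 ± 0.69 (adjusted p = 0.00307) and 1.89 ± 0.69 (adjusted p = 0.0268), and differed from WT by 0.61 ± 0.69 (adjusted p = 0.618). The calls against B6 are the less firm ones. The C1qb call was lost without end-stage replicate 1 or 3 or B6 replicate 1 or 2, with adjusted p from 0.0567 to 0.0921. The C1qc call was lost without these and without end-stage replicate 2 or B6 replicate 3, with adjusted p from 0.0522 to 0.0976. Every end-stage C1q call against pre-symptomatic mice held when a library was left out. With terms for the oligodendrocyte and neutrophil markers in the model the end-stage changes against pre-symptomatic mice were 1.34, 1.10 and 0.95 for C1qa, C1qb and C1qc, with adjusted p of 0.0866, 0.17 and 0.251. Against B6 they were 0.97, 0.70 and 0.68, with adjusted p of 0.148, 0.323 and 0.351, and against WT the differences of C1qb and C1qc turned to -0.032 and -0.051. The part of the other cells in these changes was otherwise not tested.

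Onset microglia were split. C1qb stood at 736.6, 7412, 8198, 927.0 and 2786 FPKM in replicates 1 to 5, against 1842, 2775, 1806 and 1325 FPKM in WT and 568.8, 264.3, 1839 and 924.0 FPKM in B6 at that age. The low values belong to replicates 1 and 4, whose oligodendrocyte markers summed to 31889 and 25498 FPKM. In the other 3 onset libraries that sum was 820.4 to 2917 FPKM. No C1q chain passed against WT at onset, and all 3 passed against B6 (C1qb by 1.86 ± 0.65, adjusted p = 0.0215). Members called against B6 numbered 2 without onset replicate 3, 3 without onset replicate 2 or B6 replicate 2, and 4 without B6 replicate 1, in place of 7. Against pre-symptomatic mice 0 members were called without onset replicate 2, 3 or 5 or pre-symptomatic replicate 1, 2 or 3, and 7 without onset replicate 1 or 4, in place of 3.

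Ordered by mean, C1qb ran from G93A end stage (7330 FPKM) through early symptoms (5802), WT at the age of end stage (4688), G93A onset (4012), B6 at the age of end stage (2179), WT at onset age (1937) and pre-symptomatic G93A (1180) to B6 at onset age (898.9). All MP groups came below, at 318.6 to 747.6 FPKM. C1qa and C1qc kept the same order over the 8 MG groups. Neighbouring groups in the order overlapped in their ranges in 12 of 12 pairs for each chain, so no step between neighbours exceeds the spread.

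Levels of C1q per microglia marker were computed after these data had been seen. The ratio of C1qb to the 7 summed microglia markers was 1.09 ± 0.119 at end stage, against 0.481 ± 0.0318 in WT, 0.403 ± 0.0515 in B6 and 0.337 ± 0.0429 in pre-symptomatic mice (SD, n = 4 each). The lowest end-stage library, at 0.973, was above the highest WT library, at 0.516. An exact two-sided permutation test gave p = 0.0286 for each of the 3 comparisons, the smallest it can give with 4 against 4, and 0.04 after Benjamini-Hochberg adjustment over 35 such ratio comparisons. Most of the 35 share libraries and a denominator, so the adjusted value adds little to the separation itself. C1qa (0.489 ± 0.0719 against 0.166 ± 0.00921 in WT) and C1qc (0.875 ± 0.0573 against 0.396 ± 0.0215) gave the same p.

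The denominator differed between the groups as well. P2ry12, a receptor of homeostatic microglia, was at 122.3 to 366.4 FPKM at end stage, against 733.2 to 1660 FPKM in WT. Csf1r, the receptor that microglia need to survive, was at 609.3 to 1364 FPKM at end stage, against 719.1 to 1958 FPKM in WT. Taken against each of the 7 markers by itself, C1qb was higher in every end-stage library than in every WT, B6 and pre-symptomatic library for 7 of 7. How many of all genes separate in this way, against single markers or their sum, was not counted. The difference of unscaled C1qb from WT did not pass, as given above. In early symptoms the ratio to the summed markers was 0.806 ± 0.105, and at onset it was 0.719 in replicate 2 and 0.379 to 0.464 in the other 4 libraries, where WT averaged 0.397 ± 0.0377 (exact permutation p = 0.19, adjusted 0.215).

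The proportions among the C1q chains were compared as well. C1qa per C1qb was 0.448 ± 0.0175 at end stage, against 0.345 ± 0.00946 in WT, 0.375 ± 0.0155 in B6 and 0.393 ± 0.0411 in pre-symptomatic mice (SD, n = 4 each). End-stage libraries were above all libraries of each reference, with an exact permutation p of 0.0286 (adjusted 0.04) in the 3 comparisons. In early symptoms the ratio was 0.434 ± 0.0280 against 0.393 ± 0.0411 before symptoms, within the spread (exact permutation p = 0.171, adjusted 0.2). C1qc per C1qb was 0.808 ± 0.0494 at end stage, against 0.824 ± 0.0249 in WT and 0.827 ± 0.0332 in B6, with overlapping libraries, and 0.908 ± 0.0337 in pre-symptomatic mice. There the end-stage libraries (0.758 to 0.851) were all below the pre-symptomatic ones (0.872 to 0.952). No test was run on that ratio.

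**Figure D2:**
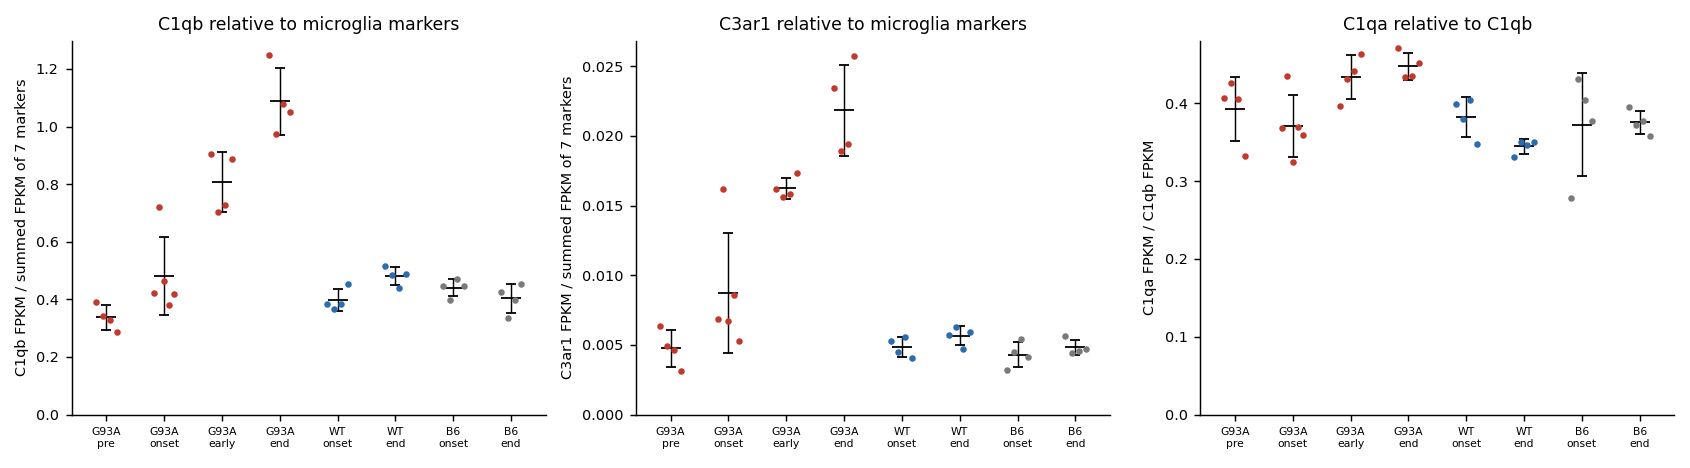
C1qb and C3ar1 relative to the summed FPKM of 7 microglia markers, and C1qa relative to C1qb, in non-grafted microglia; points are libraries, bars the mean and SD, and the vertical axes are linear and start at 0. End-stage G93A libraries lie above all WT, B6 and pre-symptomatic libraries in each panel, and among onset libraries replicate 2 is the highest for both marker ratios, at 0.719 for C1qb and 0.0162 for C3ar1.

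C3ar1, the receptor for C3a, had 179.6, 143.5, 161.9 and 81.0 FPKM at end stage, against 57.2, 68.2, 23.0 and 75.3 FPKM in WT, 19.4, 11.7, 18.9 and 48.95 FPKM in B6 and 9.40, 7.28, 19.99 and 24.2 FPKM in pre-symptomatic mice. End-stage libraries were above all libraries of the 3 references. The change was 3.23 ± 0.63 (adjusted p = 0.000389) against pre-symptomatic mice and 2.60 ± 0.63 (adjusted p = 0.00265) against B6. Against WT it was 1.39 ± 0.63 and did not pass (adjusted p = 0.173), although the groups do not overlap. Per summed microglia markers C3ar1 was 0.0218 ± 0.00327 at end stage against 0.00565 ± 0.000679 in WT (exact permutation p = 0.0286, adjusted 0.04). At onset the same ratio was 0.00873 ± 0.00435 against 0.00485 ± 0.000704 in WT (n = 5 and 4, exact permutation p = 0.0317, adjusted 0.0427).

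C5ar1, the receptor for C5a, had 92.7, 88.3, 124.4 and 169.6 FPKM at end stage, against 175.7, 137.6, 26.7 and 86.8 FPKM in WT, 20.9, 11.7, 23.0 and 44.8 FPKM in B6 and 11.5, 7.68, 16.7 and 34.6 FPKM in pre-symptomatic mice. It was higher by 2.84 ± 0.66 (adjusted p = 0.00135) against pre-symptomatic mice and by 2.30 ± 0.66 (adjusted p = 0.00751) against B6. WT and end-stage libraries overlap, and the difference between them was 0.40 ± 0.66 (adjusted p = 0.754). The 2 highest WT libraries and the highest end-stage library are those with S100a8 above 10000 FPKM. Without WT replicate 3 the difference turned to -0.16 (adjusted p = 0.926), and with quality weights to -0.28 (adjusted p = 0.49). Per summed microglia markers C5ar1 was 0.0231 ± 0.0205 at end stage and 0.0106 ± 0.00555 in WT, which overlap (exact permutation p = 0.286, adjusted 0.303). At onset it was 0.0135 ± 0.0107 against 0.00482 ± 0.000212 in WT, with no overlap (exact permutation p = 0.0159, adjusted 0.04).

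C3, the component on which all pathways meet, had 20.8, 16.3, 16.9 and 45.5 FPKM at end stage, against 36.1, 24.9, 1.33 and 5.08 FPKM in WT, 1.30, 0.52, 2.47 and 2.67 FPKM in B6 and 1.54, 1.54, 0.72 and 1.57 FPKM in pre-symptomatic mice. WT libraries thus fall into a high and a low pair around the end-stage values. The high pair, replicates 1 and 2, had neutrophil markers summing to 79063 and 41272 FPKM, and the low pair 769.6 and 3929 FPKM. In end-stage replicates 1 to 3, where C3 was 16.3 to 20.8 FPKM, that sum was 529.3 to 2014 FPKM.

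C3 was higher at end stage by 3.36 ± 0.78 (adjusted p = 0.00138) against pre-symptomatic mice and by 3.2 ± 0.78 (adjusted p = 0.00277) against B6. The difference from WT was 1.13 ± 0.78 and did not pass (adjusted p = 0.382). Without the 4 MG libraries with S100a8 above 10000 FPKM it was 2.33 (adjusted p = 0.00752), and with terms for neutrophil and oligodendrocyte markers 1.45 (adjusted p = 0.0391). With library quality weights it turned to -0.25 (adjusted p = 0.567). Per summed microglia markers C3 was 0.00533 ± 0.00609 at end stage and 0.00164 ± 0.0016 in WT (exact permutation p = 0.257, adjusted 0.281). In early symptoms, where the neutrophil markers summed to 266.0 to 1356 FPKM, C3 had 14.5, 10.8, 8.32 and 9.69 FPKM and exceeded the pre-symptomatic level by 2.33 ± 0.78 (adjusted p = 0.0254). That call was lost without pre-symptomatic replicate 1, 2 or 3 or early symptomatic replicate 1 or 2, with adjusted p from 0.0513 to 0.0676. Without pre-symptomatic replicate 2 the C1qc and C5ar1 calls of the same comparison were lost too, leaving 5 members in place of 8.

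C4b, which follows C1q in the classical pathway, had 6.88, 11.4, 13.4 and 19.8 FPKM at end stage, against 2.64, 4.72, 2.45 and 2.96 FPKM in WT, 3.68, 2.92, 2.58 and 3.01 FPKM in B6 and 6.38, 2.61, 2.44 and 1.94 FPKM in pre-symptomatic mice. Groups did not overlap. The change was 1.67 ± 0.44 (adjusted p = 0.0207) against WT, 1.70 ± 0.44 (adjusted p = 0.00415) against B6 and 1.69 ± 0.44 (adjusted p = 0.00302) against pre-symptomatic mice. In early symptoms C4b ran from 3.93 to 34.2 FPKM. The call against WT was lost without end-stage replicate 3 (adjusted p = 0.0592), end-stage replicate 4 (adjusted p = 0.0513) or WT replicate 3 (adjusted p = 0.0708), with changes of 1.62, 1.45 and 1.59. C4b and its near-identical neighbour C4a may have shared reads in the authors' counting, so the split between them is uncertain.

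Among the members, C4b had the pattern least like that of C1qb. Over the 33 MG libraries the correlation of log2(FPKM + 1) was 0.998 between C1qb and C1qc, 0.993 between C1qa and C1qb, and 0.272 between C1qb and C4b. These are descriptions over libraries that share groups and other cells' message. In the library with the highest C4b of all MG libraries, WT marrow replicate 3 in early symptoms (118.9 FPKM), astrocyte markers (8 genes) summed to 18799 FPKM, against 388.7 to 3412 FPKM in the other grafted MG libraries of that stage. In non-grafted MG, pre-symptomatic libraries had astrocyte sums of 6946 to 9140 FPKM beside C4b of 1.94 to 6.38 FPKM, and end-stage libraries 676.0 to 5858 FPKM beside 6.88 to 19.8 FPKM.

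Cfb, the serine protease of the alternative pathway, had 3.04, 1.68, 2.17 and 1.62 FPKM at end stage, against 1.00, 0.75, 0.42 and 0.08 FPKM in WT, 1.00, 0.56, 0.76 and 0.62 FPKM in B6 and 0.88, 1.25, 0.59 and 0.60 FPKM in pre-symptomatic mice. Every end-stage library was above every control, at levels of a few FPKM. The change was 1.02 ± 0.21 (adjusted p = 0.00414) against WT, 0.83 ± 0.21 (adjusted p = 0.00356) against B6 and 0.77 ± 0.21 (adjusted p = 0.00441) against pre-symptomatic mice, on a scale that understates low genes. Cfb averaged under 1 FPKM in these references and passed the filter through the later G93A groups where it is high. These calls and the onset call are limited by that. At onset Cfb had 1.05, 2.11, 2.39, 1.82 and 1.73 FPKM, against 1.21, 0.68, 0.60 and 0.46 FPKM in WT (0.70 ± 0.20, adjusted p = 0.0482). That onset call held only without onset replicate 1 or 4, where 3 members were called, and was lost without any of the other 7 libraries, with adjusted p up to 0.165.

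Cfp, properdin, which human neutrophils store in granules, did not separate the genotypes. It had 1.44, 3.2, 1.40 and 79.0 FPKM at end stage, against 67.8, 40.9, 3.69 and 7.6 FPKM in WT and 0.38, 0.56, 0.59 and 1.20 FPKM in pre-symptomatic mice, and 1.00, 0.96, 2.71, 1.31 and 169.8 FPKM at onset. Each library above 40 FPKM is among the 4 with S100a8 above 10000 FPKM. The end-stage difference from WT was -1.47 ± 1.08 (adjusted p = 0.414).

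**Figure D3:**
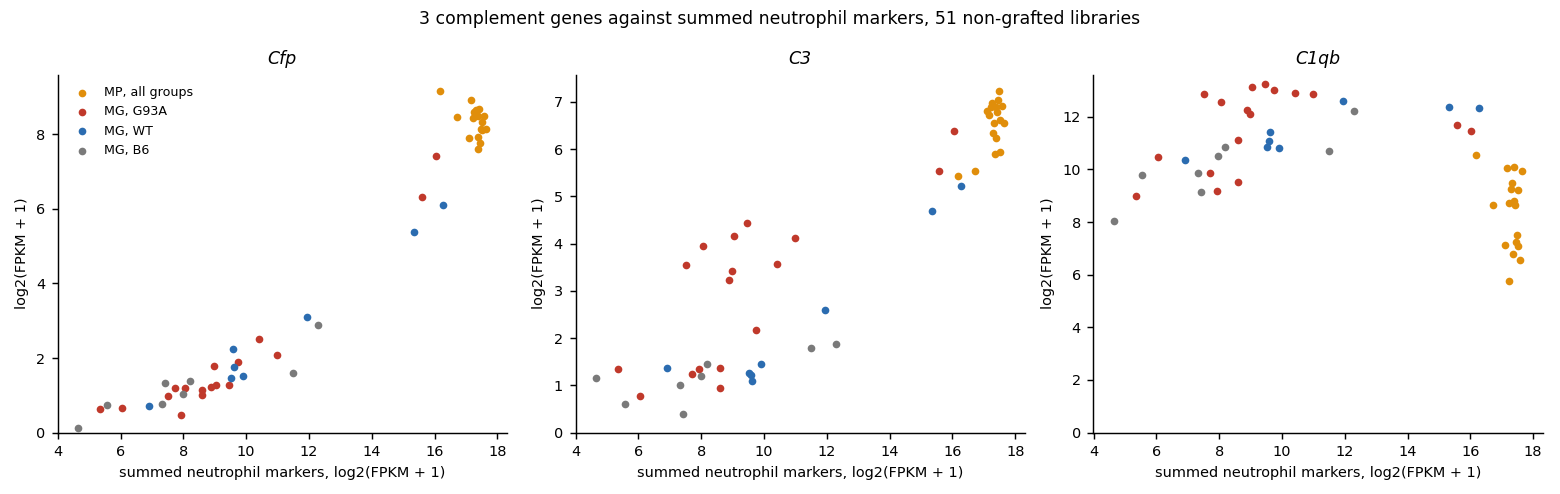
Cfp, C3 and C1qb on the vertical axis against the summed FPKM of 9 neutrophil markers on the horizontal axis, both as log2(FPKM + 1), in the 51 non-grafted libraries; each point is a library. The 4 microglia libraries with S100a8 above 10000 FPKM carry 40.9 to 169.8 FPKM of Cfp, while C1qb in them is 2786 to 5262 FPKM, inside the range of the other microglia libraries.

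Between end stage and early symptoms no member was called, beside 0% of 11750 genes, and 0 members had an unadjusted p under 0.05 in limma (339 genes did). C3 had 24.9 ± 13.9 FPKM at end stage and 10.8 ± 2.65 FPKM in early symptoms (log2 change 1.03 ± 0.78, adjusted p = 0.96). Between WT and B6 microglia 0 members were called beside 0% of genes at the age of end stage and 0 beside 0% at the age of onset. At an unadjusted p under 0.05 in limma there were 3 members in each. Among all 11750 genes there were 2421 at the age of end stage and 727 at the age of onset. The members were C3, C5ar1 and Cfp at the age of end stage (changes of 2.06, 1.90 and 2.64) and C1qa, C1qc and C3ar1 at the age of onset (changes of 1.45, 1.43 and 1.56). C3, C5ar1 and Cfp were highest among WT libraries of end-stage age in replicates 1 and 2, which had S100a8 above 10000 FPKM. A missed threshold does not show that WT and B6 are alike.

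Genes whose level followed each member most closely over the 33 MG libraries, by Pearson correlation of log2(FPKM + 1), were listed without a test. For C1qa they were Trem2 (0.993), a lipid receptor of microglia, Ly86 and Ms4a6d. For C1qb they were Ctss (0.995), a lysosomal protease, Trem2 and Ctsh, and for C1qc Trem2 (0.996), Ctsh and Ctss. C3ar1 followed Grn (0.995), Naglu and Ctsz, all of the lysosome, and C5ar1 followed Lcp1 (0.989) and Stxbp2.

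C3 was closest to Anxa2 (0.978), Cxcr4 and Dram1, and Cfp to Rgs18 (0.984), Ltb4r1 and Slfn1. C4b had lower values, with Timp1 (0.890), Hspb1 and Cela1, and Cfb the lowest, with Adcy3 (0.816), Sulf2 and Cpd. Over the 18 MP libraries C3 was closest to Dok3 (0.839), Ltf and Parvg, C4b to Sult1a1 (0.793), Timd4 and Alox15, and Cfb to C1d (0.785), Slc48a1 and Apobec3. Shared cell content and group differences enter all of these values.

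In nerve libraries the group means lay between 300.2 and 383.8 FPKM for Cfp, 267.0 and 345.8 FPKM for C5ar1, 318.6 and 747.6 FPKM for C1qb and 79.6 and 117.2 FPKM for C3. Single libraries ran from 193.2 to 568.8 FPKM for Cfp and from 42.4 to 150.0 FPKM for C3, and more widely, from 52.5 to 1480 FPKM, for C1qb. At end stage C5ar1 had 419.7, 349.2, 400.7 and 213.7 FPKM, against 289.6, 283.8, 227.8 and 266.8 FPKM in libraries described as WT and 190.3, 265.9 and 357.3 FPKM in pre-symptomatic mice. The ranges overlap throughout.

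C1qb in end-stage MP was 92.2, 600.4, 988.6 and 403.3 FPKM, against 1067, 181.4, 52.5 and 134.8 FPKM in libraries described as WT and 149.9, 1480 and 613.2 FPKM in pre-symptomatic mice. C4b ran from 2.46 to 63.6 FPKM at end stage, from 0.01 to 24.4 FPKM where described as WT and from 0.04 to 21.4 FPKM before symptoms. Cfb was listed at 0 FPKM in 4 of the 18 MP libraries and reached 42.6 FPKM in another. C1qa and C1qb had a correlation of 0.972 over the 18 libraries.

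No member was called in any MP comparison with limma. At end stage the counts were 0 of 9 beside 0% of 10260 genes against libraries described as WT and 0 beside 0.00975% (1 gene) against pre-symptomatic mice. They were 0 beside 0% at onset and 0 beside 0% in early symptoms against pre-symptomatic mice, and 0 beside 0% at end stage against early symptoms. At an unadjusted p under 0.05 the count of members was 0 in each of the 5, and that of genes 334 to 671. C4b at end stage differed from libraries described as WT by 2.40 ± 1.30 on the log2 scale (adjusted p = 0.798). C3 in the same comparison was -0.63 ± 0.32 (adjusted p = 0.787).

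**Figure D4:**
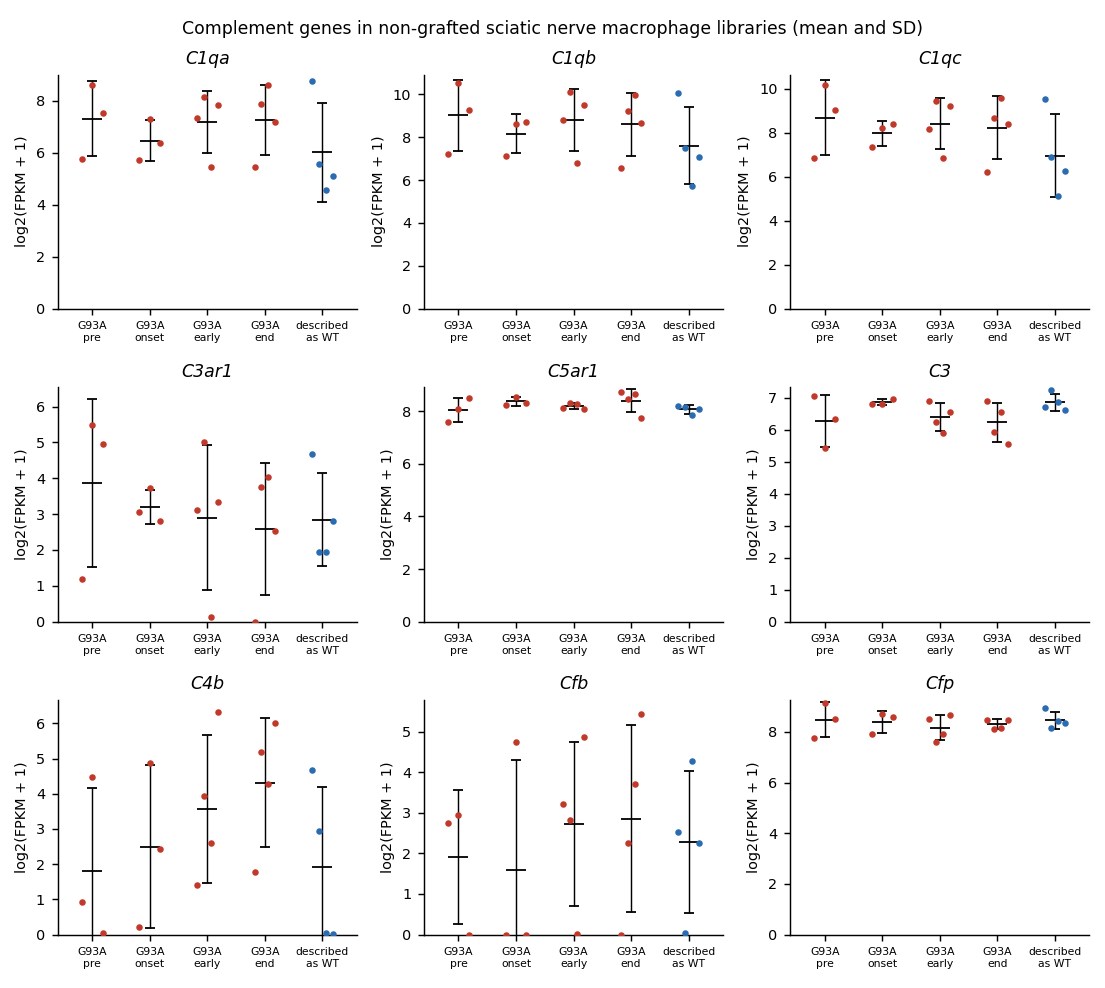
Level of each member in the 18 non-grafted sciatic nerve libraries, as log2(FPKM + 1) on the vertical axis, by stage; points are libraries, bars the mean and SD. End-stage libraries overlap in range with those of each other group for every gene, and C1qb runs from 52.5 to 1480 FPKM over the libraries where Cfp runs from 193.2 to 568.8 FPKM.

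Nerve and spinal cord libraries were set against each other in 1 model of all 51 non-grafted libraries. Before symptoms 3 of 9 members were higher in MP than in MG, beside 23.6% of 11773 genes, and 0 were lower. Cfp averaged 383.8 ± 176.1 FPKM in MP and 0.683 ± 0.357 FPKM in MG (7.75 ± 0.96, adjusted p = 1.82e-08). C3 averaged 84.8 ± 44.7 FPKM in MP and 1.34 ± 0.415 FPKM in MG (5.07 ± 0.72, adjusted p = 1.92e-07). C5ar1 averaged 271.2 ± 83.6 FPKM in MP and 17.6 ± 11.9 FPKM in MG (4.03 ± 0.59, adjusted p = 3.52e-07). The MP libraries are also those with the neutrophil markers, whose part in these differences was not tested.

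At end stage 7 of 9 differed, beside 39.4% of genes in either direction. Cfp (5.57 ± 0.89), C3 (1.67 ± 0.66) and C5ar1 (1.54 ± 0.55) were again higher in MP, with adjusted p of 6.15e-06, 0.0419 and 0.0232. Lower in MP were C1qa (-4.30 ± 0.77), C1qb (-4.13 ± 0.81), C1qc (-4.20 ± 0.79) and C3ar1 (-4.52 ± 0.85), with adjusted p between 3e-05 and 9.05e-05. C1qa averaged 200.6 ± 145.2 FPKM in MP and 3288 ± 1315 FPKM in MG, and C3ar1 8.14 ± 7 FPKM in MP and 141.5 ± 43.0 FPKM in MG (SD, n = 4 each). The C3 call was lost without replicate 1, 2 or 3 of either MP or MG (adjusted p from 0.0521 to 0.118). The C5ar1 call was lost without MG replicate 1 or 2 or MP replicate 1 or 3 (adjusted p from 0.0535 to 0.0645).

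The change to end stage itself was compared between the compartments. It was lower in MP than in MG for 4 of 9 members, beside 10.3% of 11773 genes lower, with medians of -3.02 over members and -0.18 over all genes. C3ar1 differed by -4.52 ± 1.25 (adjusted p = 0.0123), C3 by -3.40 ± 0.98 (adjusted p = 0.0152), C5ar1 by -2.49 ± 0.81 (adjusted p = 0.0265) and C1qb by -3.20 ± 1.19 (adjusted p = 0.0498). C1qa (-3.02 ± 1.14) and C1qc (-3.09 ± 1.16) came to an adjusted p of 0.0536 each. C1qb is at the threshold. Its call held only without pre-symptomatic MG replicate 4, end-stage MG replicate 4, pre-symptomatic MP replicate 1 or end-stage MP replicate 3, and was lost without any of the other 11 libraries (adjusted p up to 0.166). C5ar1 was lost without pre-symptomatic MG replicate 1 or 2 or pre-symptomatic MP replicate 3 (adjusted p from 0.0539 to 0.0699), which left 2 members in place of 4.

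Scaling bears on the split of all genes in these comparisons. With median-ratio scaling the genes called higher and lower were 2104 and 4858 in MP against MG before symptoms, in place of 2783 and 3651, and the median of all genes was -0.57 in place of -0.17. For the difference in change they were 1643 and 835 in place of 1120 and 1209, and the median was 0.20 in place of -0.18. At end stage against WT microglia they were 508 and 252 in place of 330 and 492, at onset against B6 2564 and 3564 in place of 3457 and 3020, and in grafted MP against MG 1337 and 2050 in place of 1677 and 1462. At onset against WT 29 genes were higher and 2 lower, while without this scaling 384 were lower. The median of all genes moved to -0.04 in place of 0.15 at onset against B6, to -0.02 in place of 0.14 at onset and -0.08 in place of 0.05 in early symptoms against pre-symptomatic mice, and to -0.33 in place of -0.08 in grafted MP against MG. No called member changed sign under it.

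Marrow of WT donors was set against marrow of G93A donors in G93A hosts. No member was called between them in either compartment. In MG 0 of 9 were called beside 0% of 11143 genes in early symptoms and 0 beside 0% at end stage. In MP it was 0 beside 0% of 10299 genes in early symptoms and 0 beside 0% at end stage. At an unadjusted p under 0.05 limma gave 1 member in MG in early symptoms (C5ar1, -0.92 ± 0.41, adjusted p = 0.438), beside 1229 of 11143 genes. It gave 1 in MP at end stage (C3), beside 1588 of 10299 genes. Neither count stands apart from all genes. No member reached it in MG at end stage (53 genes did) or in MP in early symptoms (245 genes did).

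C3 in end-stage nerve libraries had 21.2, 44.8 and 24.3 FPKM with WT marrow, against 164.0, 137.6 and 127.2 FPKM with G93A marrow. The groups do not overlap, and 0% of genes were called. How many of all genes also had groups without overlap was not counted. In limma 1588 of 10299 genes had an unadjusted p under 0.05. The change of C3 was -2.28 ± 0.56 (adjusted p = 0.151). In early symptoms the order was the other way for the means, at 103.2 and 92.4 FPKM with WT marrow and 18.8, 37.8 and 130.6 FPKM with G93A marrow (1.08 ± 0.62, adjusted p = 1). C5ar1 at end stage had 150.6, 282.8 and 215.1 FPKM with WT marrow, against 319.6, 323.3 and 382.1 FPKM with G93A marrow (-0.70 ± 0.44, adjusted p = 0.471).

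Other genes separated these end-stage nerve libraries as C3 did. Itgam, the gene of CD11b, had 51.2, 184.8 and 66.6 FPKM with WT marrow, against 323.2, 329.6 and 263.9 FPKM with G93A marrow. Marker sums were higher with WT marrow, with no overlap, for oligodendrocytes (435.0 to 1927 FPKM with WT marrow, 25.2 to 213.5 FPKM with G93A marrow), neurons (11.8 to 50.5 against 0.12 to 2.27 FPKM), Schwann cells (78.2 to 114.8 against 4.23 to 64.0 FPKM) and red cells (25748 to 40402 against 9303 to 24500 FPKM). They were lower for fibroblasts (237.2 to 403.6 against 452.3 to 599.4 FPKM). Neutrophil markers overlapped, at 95107 to 150567 FPKM with WT marrow and 107701 to 145060 FPKM with G93A marrow. The part of other cells in the C3 difference was not tested.

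C1qb in grafted microglia at end stage had 10134, 11575 and 9155 FPKM with WT marrow, against 10151, 13428 and 10458 FPKM with G93A marrow (-0.14 ± 0.52). In early symptoms it had 8164, 5493 and 1834 FPKM with WT marrow, against 9059, 7646 and 8558 FPKM with G93A marrow (-0.95 ± 0.52, adjusted p = 0.518). The lowest of these, WT marrow replicate 3, is the library with 18799 FPKM of summed astrocyte and 28008 FPKM of oligodendrocyte markers, and its microglia markers summed to 1320 FPKM. Without it 0 members were called as well, and without WT marrow replicate 1 the count was 1.

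**Figure D5:**
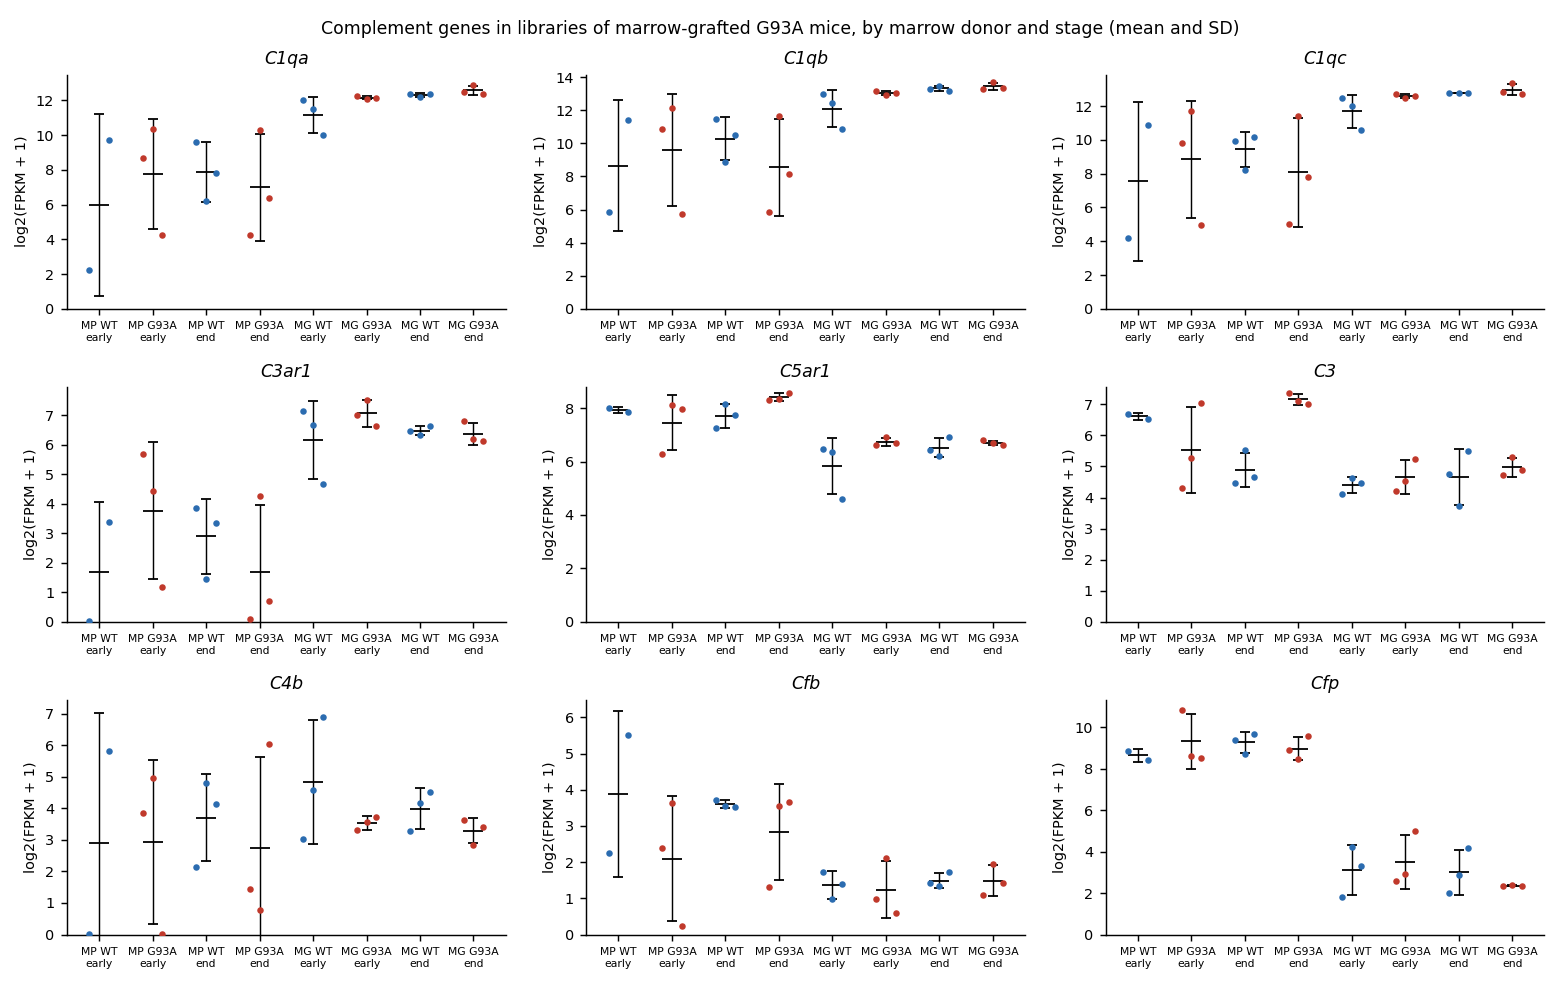
Level of each member in the 23 libraries of marrow-grafted G93A mice, as log2(FPKM + 1) on the vertical axis, by cell type, marrow donor (WT or G93A) and stage; points are libraries, bars the mean and SD. In MP at end stage C3 with WT marrow (21.2 to 44.8 FPKM) lies below C3 with G93A marrow (127.2 to 164.0 FPKM). C1q chains have higher means in each MG group than in each MP group. Single libraries overlap, as C1qb in early symptoms goes down to 1834 FPKM in MG with WT marrow and up to 4536 FPKM in MP with G93A marrow.

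Grafted nerve and spinal cord libraries of mice with G93A marrow differed at end stage in 7 of 9 members, beside 27.9% of 11248 genes in either direction. Higher in MP were Cfp (6.63 ± 0.69, adjusted p = 1.37e-06), C3 (2.19 ± 0.52, adjusted p = 0.00336) and C5ar1 (1.71 ± 0.45, adjusted p = 0.00741). Lower were C1qa (-5.58 ± 1.57), C1qb (-4.90 ± 1.44), C1qc (-4.89 ± 1.54) and C3ar1 (-4.68 ± 1.07), with adjusted p from 0.00252 to 0.0215. The 3 MP libraries were uneven, with 56.0, 3290 and 285.6 FPKM of C1qb, against 10151, 13428 and 10458 FPKM in MG. The microglia markers of the same MP libraries summed to 176.3, 1298 and 170.2 FPKM. Without MP replicate 1 the C1q calls were lost, with adjusted p of 0.0815 to 0.148. The C1qc call was also lost without MP replicate 3 or MG replicate 1 or 2 (adjusted p from 0.0541 to 0.0615).

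Other complement genes were read from a list of 49, of which 47 have a row. In MG 19 of them were tested. At end stage against WT 2 were higher and 1 lower, beside 2.81% and 4.19% of all genes, with a median log2 change of 0.10 over the 19 and -0.13 over all genes. Colec12, a scavenger collectin, averaged 61.6 FPKM against 2.25 FPKM (4.26 ± 0.56, adjusted p = 5.02e-05). Itgax, the alpha chain of complement receptor 4, averaged 58.3 FPKM against 7.17 FPKM (2.99 ± 0.63, adjusted p = 0.0043). Vtn, vitronectin, an inhibitor of the terminal pathway, averaged 3.09 FPKM against 10.3 FPKM (-1.36 ± 0.32, adjusted p = 0.0109).

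Against pre-symptomatic mice 7 of the 19 were higher and 3 lower at end stage, where 24.8% of all genes were higher and 31.1% lower (median 1.00, against 0.03 over all genes). In early symptoms 8 were higher and 0 lower, beside 19.2% and 16%, and at onset 2 and 2, beside 10.3% and 15%. The integrin chains of complement receptors were among them, Itgb2 by 2.95 ± 0.64 and Itgam by 1.65 ± 0.57 at end stage. Clu, clusterin, another terminal inhibitor, fell by 2.16 on the log2 scale, to 264.3 FPKM against 810.1 FPKM. The 8 astrocyte markers summed to 676.0 to 5858 FPKM at end stage and 6946 to 9140 FPKM before symptoms, and their part in the Clu difference was not tested. Against B6 the genes called higher and lower numbered 7 and 1 at end stage, beside 18.3% and 28%, and 6 and 3 at onset, beside 29.4% and 25.7%. Against WT at onset they were 1 (Itgax) and 0, beside 1.04% and 3.27%. In MP comparisons none of 23 was called, nor any in the 4 marrow comparisons.

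In MP against MG 7 were higher and 5 lower of 21 before symptoms, beside 23.6% and 31% of all genes, and 3 and 10 at end stage, beside 13.1% and 26.3%. Fcnb, a ficolin of neutrophils, averaged 567.1 FPKM in MP and 39.7 FPKM in MG at end stage (5.46 ± 1.14, adjusted p = 0.000207). Cd55, which breaks up C3-splitting enzymes on the cell surface, averaged 27.4 FPKM in MP and 2.23 FPKM in MG (3.81 ± 0.66, adjusted p = 1.76e-05). The change to end stage was lower in MP than in MG for 7 of the 21 and higher for 1, Clu, beside 10.3% and 9.51%. In grafted mice 3 of 23 were higher in MP and 7 lower, beside 14.9% and 13%.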

How the data were processed

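FPKM values were deposited by the authors in a table of non-grafted and a table of grafted libraries, per the file headers, with decimal commas (entered as an other unit here). Per the submitters' processing notes, mm10, FastQC, Picard, SAMtools, DESeq2 and R 3.2.5 were used. Aligner, counting and strandedness: not given in the sources used here. Read depth is unknown. Summed FPKM per library was 484604 to 618562 for MG and 625386 to 986659 for MP outside the grafts.

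Differences were tested two-sided with limma 3.58.1 in R 4.3.3 (group means, moderated variances with a trend) on log2(FPKM + 1), over genes with a symbol and a mean of at least 1 FPKM in the fit. Separate fits held the 33 MG, the 18 MP or all 51 non-grafted libraries, and the 12 MG, the 11 MP or all 23 grafted libraries, so that no value was tested across tables. Errors are SE for log2 changes and SD for FPKM. P-values measure the spread between libraries of separate mice or pools. Library titles do not say whether MP and MG libraries come from the same mice.

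Members and gene lists were chosen with earlier results of these data known. Genes named are the 9 members, called genes among the other complement genes and the 3 genes most correlated with each member. Results of a few genes that these rules name are not reported here. Same-numbered libraries deviated together (r above 0.1 in every pair, 0.14 to 0.32) for grafted MP against MG, where the replicate block changed no call. Alternatives were a pseudocount of 0.1, no filter, median-ratio scaling, the block, quality weights, fewer groups, marker terms and left-out libraries.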

Additional observations from a re-analysis of the deposited data

Results flagged for a closer look

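Of 99 sets of libraries (a gene in a group of 4 or 5), 12 held a library far from the others for their range, where chance gives about 1 in 20. In non-grafted MG these were Cfb in early symptoms (replicate 1, 3.79 FPKM), C3 and Cfp at end stage (replicate 4, 45.52 and 78.97 FPKM), C3 and Cfp at onset (replicate 5, 82.19 and 169.84 FPKM), and before symptoms C3 (replicate 3, low at 0.72 FPKM) and C4b (replicate 1, 6.38 FPKM). The C3 and Cfp libraries at onset and end stage are 2 of the 4 with S100a8 above 10000 FPKM. In MP they were C4b in early symptoms (replicate 4, 78.7 FPKM) and, in replicate 1 of the libraries described as WT, C1qa (437.58 FPKM), C1qb (1066.84 FPKM), C1qc (747.99 FPKM) and C3ar1 (24.75 FPKM).

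End-stage minus pre-symptomatic levels differed between MP and MG by a test of the difference itself (limma, adjusted p under 0.05) for C1qb (-3.20), C3 (-3.40), C3ar1 (-4.52) and C5ar1 (-2.49), on the log2 scale.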

How the results depend on the processing

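The 58 called changes of members were recomputed with other settings and with single libraries left out, which gave 945 values. Of these, 762 kept their sign and call, 181 kept the sign without the call and 2 had the opposite sign. Both were Cfb in MG scaled to the summed microglia markers, an alternative chosen after seeing the data (onset against B6 -0.40, early symptoms against pre-symptomatic -0.014). Of 486 values with 1 library left out 391 kept the call and 0 changed sign. Under the opposite sign at end stage against WT came C1qb (-0.032) and C1qc (-0.051) with marker terms, C3 (-0.25) and C5ar1 (-0.28) with quality weights, and C5ar1 without WT replicate 3 (-0.16, against up to 0.73 without WT replicate 1). None of these was called in any setting with that sign; the cause was not tested.

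Counts of members called moved as follows. At end stage against WT (2) they were 5 (quality weights), 1 (compared groups alone), 4 (microglia scaling) and 1 to 2 with 1 library left out. Quality weights there called 1526 genes higher and 4188 lower of 11750, in place of 330 and 492. The 5 members thus came with many more calls over all genes. At onset against WT (1) they were 7 with quality weights, 0 with a pseudocount of 0.1, no filter, median-ratio scaling, the replicate block, only the groups compared, marker terms, without the libraries with high S100a8 or with microglia scaling, and 0 to 3 with 1 library left out. At onset against B6 (7) they were 4 with the block, 0 with only the groups compared, 0 with marker terms, 2 with microglia scaling and 2 to 7 with 1 library left out. At onset against pre-symptomatic (3) they were 7 with quality weights, 0 with no filter, the block, only the groups compared, marker terms, without high S100a8 or with microglia scaling, and 0 to 7 with 1 library left out. Marker terms gave 5 at end stage against B6 (8) and 2 against pre-symptomatic (8). In early symptoms (8) microglia scaling gave 4 and leaving out 1 library 5 to 8. Quality weights, which ran from 0.0643 to 11.5 in non-grafted MG, gave 7 and 5 for WT against B6 at the ages of end stage and onset and 7 for grafted MG in early symptoms (0 to 1 with 1 library left out). In each of these the main setting called 0 members and 0% of genes. With 1 library left out the difference in change (4) gave 2 to 6 and grafted MP against MG (7) gave 4 to 7. Except where stated, the share of all genes called under each setting is not given. The moved counts are therefore not read as results about the members.

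Outside grafted MP against MG, same-numbered libraries did not deviate together in every pair (r above 0.1). This does not show that they come from different mice. The replicate block moved the members called at onset against WT to 0, against B6 to 4 and against pre-symptomatic to 0, and no other count by more than 1.5 times. Depth is unknown, so low levels of Cfb and of C4b in MP carry no counting interval.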
